A study of Rattus norvegicus with 8 samples.

Results

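The levels of 9 genes of myelin and of the oligodendrocyte, the cell that makes myelin in the central nervous system, were compared in the rat hypothalamus after cannabis vapor and after air. They were Mbp, Mobp, Mag, Mog, Cnp, Cldn11, Mal, Ugt8 and Opalin, chosen by gene symbol, and they are 9 of 18003 gene symbols and 54 of 98356 polyadenylation sites in the data. The measurement was WTTS-Seq, a method that sequences only the termini of polyadenylated transcripts. A read therefore marks the place where a transcript ends, and a gene with alternative polyadenylation (APA) has several such sites. All 8 libraries came from the hypothalamus of adult Long-Evans rats, which were male by the study's methods. For 10 min, 4 rats inhaled vaporized cannabis plant matter (7.8% THC, 0.5% CBD) and 4 air-treated controls received air from an unfilled vaporizer, and the hypothalamus was dissected 1 hr later. The cohort is described with 8 rats per group, and how the 4 rats of each group with a library here were chosen is not given in the sources used here. The controls are numbered 1, 2, 3 and 4 and the cannabis-exposed rats 1, 2, 3 and 5, as in the labels.

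Myelin is a multilayered membrane that oligodendrocytes wrap around axons. Compact myelin holds the layers together with basic proteins such as Mbp and Mobp, while Mag and Mog lie at the inner and the outer surface of the sheath. Its membrane is rich in galactolipids, whose synthesis requires Ugt8, and the layers are sealed by tight junctions built from Cldn11. In hypothalamus, myelinated fibers run mainly through tracts such as the fornix and beside the optic tract, and oligodendrocytes are a smaller part of the tissue than in white matter.

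The start regions of 5 members are shown, chosen because each belongs to 1 of 2 sets of genes whose levels varied together across the libraries, as described further on. Mog, which belongs to the second set, is not shown. They are the 250 bases before the annotated transcript start in the RefSeq promoter table of assembly GRCr8, in which 8 of the 9 members were found. Capitals mark ACAAAG or its reverse complement CTTTGT, a core bound by SOX factors such as Sox10, and CTGGCAC or its reverse complement GTGCCAG, one spelling of the sequence bound by Myrf. Cnp and Cldn11 form the first set:
Cnp, chr10:86011254-86011503, + strand: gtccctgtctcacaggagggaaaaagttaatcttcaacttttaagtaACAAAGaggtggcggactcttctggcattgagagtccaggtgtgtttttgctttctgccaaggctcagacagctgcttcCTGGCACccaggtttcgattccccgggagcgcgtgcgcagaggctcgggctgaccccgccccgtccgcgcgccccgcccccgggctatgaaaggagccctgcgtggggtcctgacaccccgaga
Cldn11, chr2:114149540-114149789, - strand: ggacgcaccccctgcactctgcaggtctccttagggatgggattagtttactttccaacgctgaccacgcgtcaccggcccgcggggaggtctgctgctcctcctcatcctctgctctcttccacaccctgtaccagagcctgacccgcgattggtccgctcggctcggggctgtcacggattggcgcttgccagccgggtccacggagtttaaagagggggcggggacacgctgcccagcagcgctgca
Mal, Opalin and Mobp form the second set:
Mal, chr3:135341424-135341673, - strand: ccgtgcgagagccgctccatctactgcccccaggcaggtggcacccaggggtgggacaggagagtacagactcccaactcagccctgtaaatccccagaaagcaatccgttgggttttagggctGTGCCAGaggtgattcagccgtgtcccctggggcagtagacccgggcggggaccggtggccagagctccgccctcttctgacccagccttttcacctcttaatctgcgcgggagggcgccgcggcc
Opalin, chr1:249858191-249858440, - strand: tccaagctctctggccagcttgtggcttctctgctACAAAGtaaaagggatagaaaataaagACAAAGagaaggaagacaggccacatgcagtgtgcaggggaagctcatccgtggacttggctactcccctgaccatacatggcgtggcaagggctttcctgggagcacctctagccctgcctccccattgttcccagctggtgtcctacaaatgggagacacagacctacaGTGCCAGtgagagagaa
Mobp, chr8:128746982-128747231, + strand: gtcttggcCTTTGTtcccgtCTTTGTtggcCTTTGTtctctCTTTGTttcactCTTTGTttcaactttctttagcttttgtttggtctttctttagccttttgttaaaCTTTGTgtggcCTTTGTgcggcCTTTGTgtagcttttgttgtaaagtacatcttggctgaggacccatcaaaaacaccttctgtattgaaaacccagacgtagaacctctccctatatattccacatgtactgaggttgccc
The SOX letters occurred 8 times before Mobp, 2 times before Opalin, 1 time before Cnp and not before Cldn11 or Mal. The 8 before Mobp lie within a run of similar repeated letters, so they are not independent occurrences. The Myrf letters occurred 1 time each before Cnp, Mal and Opalin. Over the 9 start regions of the 8 matched members, of which Mbp has a pair, the SOX letters were present in 5 and the Myrf letters in 4. Of all 33469 start regions of this length, 16.3% held the SOX letters and 3.78% the Myrf letters. A match describes the letters only, and no binding was measured.

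Depth ranged from 1159811 to 3706778 reads per library. Values are normalized counts, in which a library's reads were scaled by its size factor, so that 1 read stands for 0.664 normalized counts in the deepest library and 1.99 in the shallowest. Air control 4 and cannabis 1 had the fewest reads, 1159811 and 1919709, although air control 2 had hardly more than the latter, with 1941129. Their deviations from the group means had a Pearson r of 0.489 over 12114 genes, the highest between a control and a cannabis-exposed rat, followed by 0.371 for air control 3 with cannabis 2 and 0.24 for air control 2 with cannabis 3. The differences of the members are therefore also given without air control 4 and cannabis 1, a choice made after seeing the data. No pair of libraries agreed within sampling noise. The hypothalamic neuropeptide genes Avp (1054 to 6314 normalized counts), Oxt (371 to 1674), Pmch (346 to 1263), Hcrt (89.4 to 307), Pomc (48.3 to 108) and Agrp (26.2 to 59.6), chosen after seeing the data, were present in all 8 libraries. Of the markers of other cells, the 6 neuron markers summed to 2811 to 3330 in controls and 2658 to 3360 in cannabis-exposed rats. The 6 astrocyte markers summed to 2836 to 4204 in controls and 3208 to 5162 after cannabis, 6 microglia markers to 552 to 715 and 574 to 734, 3 choroid plexus markers to 11.9 to 26.3 and 12.4 to 37.9, and 2 of 4 pituitary markers to 20.8 to 133 and 13.8 to 102. The summed endothelial markers (3 of 4 measured) did not overlap, with 81.1 to 88.0 in controls and 93.0 to 115 in cannabis-exposed rats. Among the marker sums given here, only this one did not overlap. The groups also did not overlap for 1.98% of all single gene totals, and the rate for sums of genes was not determined. No single marker of these cells had a limma P under 0.05, and the part of these cells in the results on myelin genes was not tested. The 9 members summed to 38169 to 51986 normalized counts in controls and 31349 to 48227 after cannabis. Most of this was Mbp, and without it the sum was 6411 to 7907 in controls and 5322 to 7604 after cannabis.

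The total of each gene, summed over its sites, did not separate the groups for any of the 9 members. The mean log2 total after cannabis was lower for 7 and higher for 2 of them. Over all 18003 genes it was lower for 7850 and higher for 10153. The median difference of the members was -0.15 on the log2 scale, and the same median over all 18003 genes was 0.053. In this bulk tissue, fewer cells of a type and less RNA per cell cannot be told apart. With limma on log2(total + 1), 0 of 9 members passed P under 0.01, against 0.278% of all genes. At P under 0.05 the count was also 0 of 9, against 2.41% of all genes, and at adjusted P under 0.1 it was 0 of 9 against 0.00555%. The count models gave 0 of 9 at P under 0.01 as well, against 0.3% of all genes in edgeR and 0.422% in DESeq2. Values of the groups overlapped for 9 of 9 members, whereas they did not overlap for 1.98% of all genes. Adjusted P was 0.999 for each member, and the exact two-sided permutation test, whose smallest P with 4 against 4 rats is 0.0286, gave at least 0.2.

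**Figure D1:**
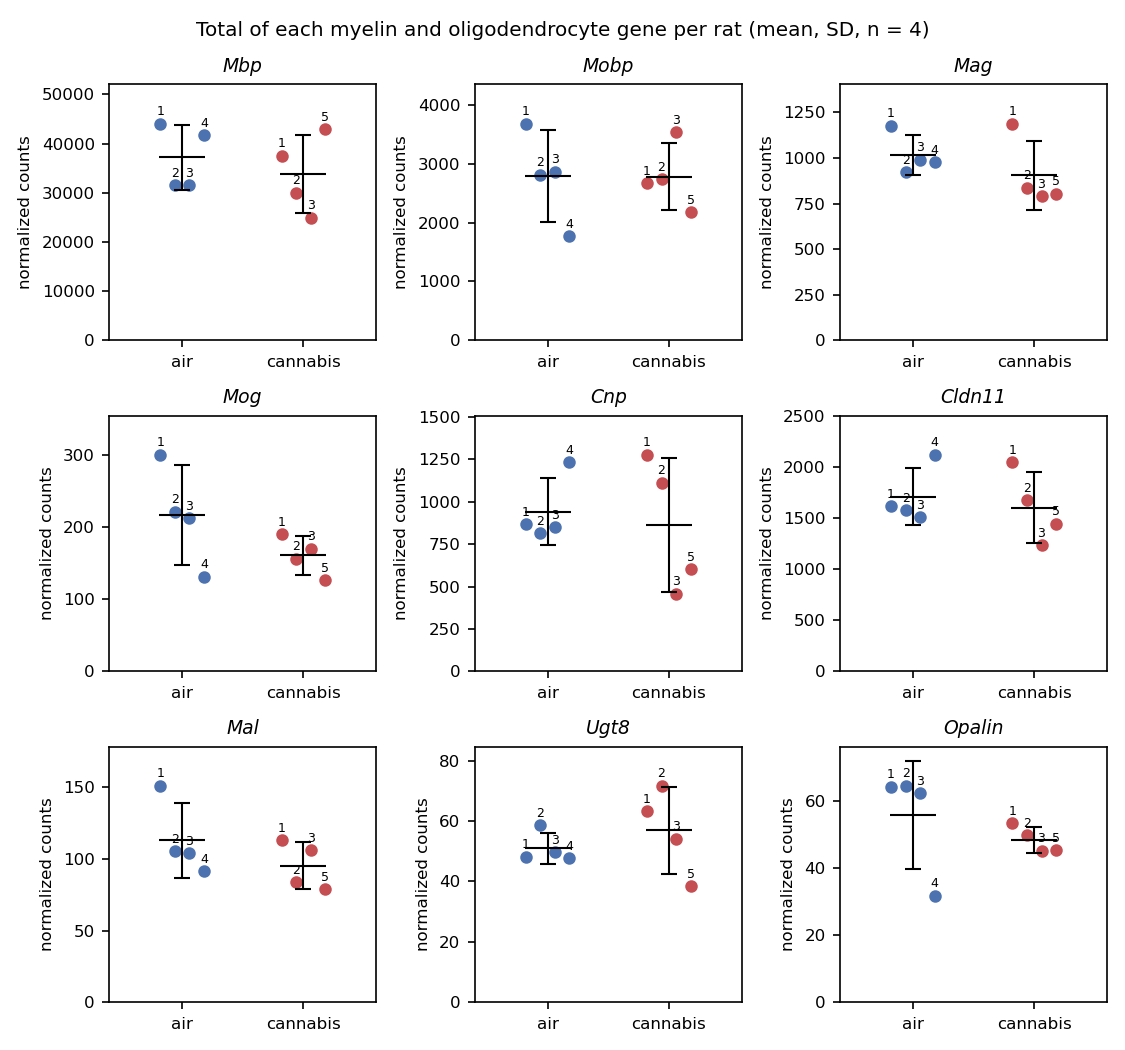
Totals of the 9 genes in normalized counts, 1 point per rat with its replicate number, air-treated controls in blue and cannabis-exposed rats in red, each axis starting at 0. Horizontal marks are group means and bars are 1 SD (n = 4 per group); in every panel the points of the groups overlap, as for Mbp with 31592 to 44079 in controls and 24953 to 42905 after cannabis.

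Mbp encodes myelin basic protein, which holds the cytoplasmic faces of the membrane together, and its mean total ranked 3 among all 18003 genes. Its totals were 44079, 31592, 31616 and 41769 in controls 1 to 4 and 37530, 30039.5, 24953 and 42905 in cannabis-exposed rats 1, 2, 3 and 5. The lowest value was in cannabis 3 and the second highest in cannabis 5, so the spread within the cannabis group covered most of the control range. The log2 difference, cannabis minus air, was -0.15 with a 95% confidence interval from -0.73 to 0.42 (limma P = 0.58, exact permutation P = 0.486), and it was -0.15 without air control 4 and cannabis 1 too.

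Mobp, a small basic protein of compact myelin, had totals of 3679, 2811, 2863 and 1773 in controls and 2666, 2739, 3537 and 2178 in cannabis-exposed rats. Air control 1 and cannabis 3 stood highest and air control 4 lowest, and both groups thus held a high library. The difference was 0.025 (95% confidence interval -0.50 to 0.55, limma P = 0.921, exact permutation P = 1), and it was -0.18 without air control 4, -0.098 without cannabis 3 and -0.16 without air control 4 and cannabis 1. The sign of this difference thus turned with the libraries kept.

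Mag, the myelin-associated glycoprotein of the membrane facing the axon, was at 1176, 923, 991 and 977 in controls and 1188, 836, 790.2 and 804 after cannabis. Cannabis 1 lay above all controls, and the other 3 cannabis-exposed rats lay below all of them. The difference was -0.18 on the log2 scale (95% confidence interval -0.61 to 0.24, limma P = 0.367, exact permutation P = 0.4). Without air control 4 and cannabis 1 it was -0.34 (95% confidence interval -0.73 to 0.049).

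Mog, the glycoprotein of the outermost myelin layer, had the largest difference among the members. Its totals were 300.5, 221, 212 and 131 in controls and 190.0, 156, 170.2 and 127 in cannabis-exposed rats. Controls 1, 2 and 3 lay above all cannabis-exposed rats, and air control 4 lay below all but 1 of them. The difference was -0.38 on the log2 scale (95% confidence interval -0.94 to 0.17, limma P = 0.162, exact permutation P = 0.2). Without air control 4 it was -0.60 (limma P = 0.0214, exact permutation P = 0.0571, the smallest possible for 3 against 4 rats), and without air control 1 it was -0.20 (limma P = 0.452, exact permutation P = 0.4). Without air control 4 and cannabis 1 it was -0.69 with a 95% confidence interval from -1.17 to -0.20 (limma P = 0.00934 and adjusted P = 0.999, exact permutation P = 0.1, the smallest possible for 3 against 3). In that setting 70 of 18003 genes passed P under 0.01, and the call on Mog rests on whether these libraries are kept.

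Cnp, an enzyme of non-compact myelin that keeps cytoplasmic channels open, varied most among libraries, with a coefficient of variation of 32.3%. Its totals were 868, 814, 852 and 1235 in controls and 1279, 1113, 458 and 604 after cannabis. The control values other than that of air control 4 were close to each other, and the cannabis values lay on both sides of them. The difference was -0.23 (95% confidence interval -0.88 to 0.42, limma P = 0.462, exact permutation P = 0.771). It was 0.035 without cannabis 3, -0.46 without cannabis 1 and -0.32 without air control 4 and cannabis 1.

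Cldn11, the claudin of the myelin tight junctions, was at 1619, 1579, 1513 and 2123 in controls and 2050.2, 1675, 1236 and 1446 in cannabis-exposed rats. As for Cnp, air control 4 and cannabis 1 held the 2 highest values. The difference was -0.11 (95% confidence interval -0.56 to 0.35, limma P = 0.625, exact permutation P = 0.629), and -0.12 without air control 4 and cannabis 1. It was 0.011 without cannabis 3 alone and 0.0038 without air control 4 alone.

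Mal, a proteolipid of membrane rafts, was at 151, 105, 104 and 91.4 in controls and 113, 83.7, 106.3 and 79.1 after cannabis. Air control 1 was highest, and 2 of the cannabis values lay above and 2 below the other controls. The difference was -0.23 (95% confidence interval -0.74 to 0.28, limma P = 0.348, exact permutation P = 0.371), and -0.41 (95% confidence interval -0.94 to 0.12) without air control 4 and cannabis 1. Ugt8, the galactosyltransferase of galactolipid synthesis, was at 48.2, 58.7, 49.7 and 47.7 in controls and 63.3, 71.7, 54.1 and 38.4 after cannabis. Its cannabis values included both the highest and the lowest of the 8. The difference was 0.12 (95% confidence interval -0.44 to 0.68, limma P = 0.648, exact permutation P = 0.486), and 0.028 without air control 4 and cannabis 1.

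Opalin, a transmembrane glycoprotein of oligodendrocytes, was at 64.3, 64.6, 62.4 and 31.8 in controls and 53.4, 49.8, 45.3 and 45.3 after cannabis. Controls 1, 2 and 3 lay close together above all cannabis-exposed rats, and air control 4 had the lowest value of all, from 16 reads. The difference was -0.15 (95% confidence interval -0.75 to 0.46, limma P = 0.609, exact permutation P = 0.457), and without air control 4 and cannabis 1 it was -0.44 (95% confidence interval -0.95 to 0.071). Opalin and Ugt8 rested on the fewest reads, 474 and 477 over all libraries, so their values carry the largest counting error of the 9.

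**Figure D2:**
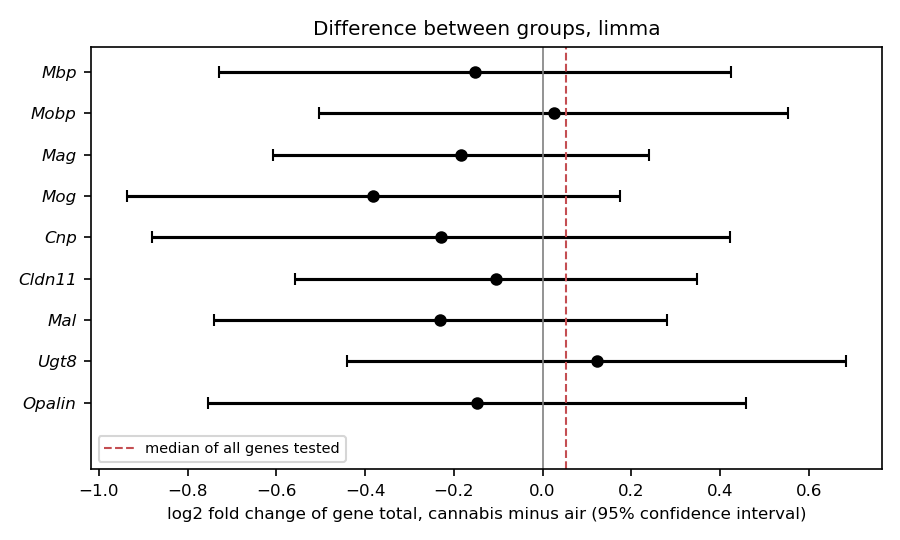
Log2 fold change of each gene total, cannabis minus air, with its 95% confidence interval from limma over 8 libraries. All 9 intervals include 0 (grey line), from Mog at -0.38 to Ugt8 at 0.12, and the dashed line is the median of all genes tested, 0.053.

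Read counts at 3′ ends do not grow with transcript length, so the totals can be ordered across genes, although how well each site was recovered is not known. Mean totals over the 8 libraries ran from Mbp (35561, rank 3) through Mobp (2781, rank 52), Cldn11 (1655, rank 108), Mag (961, rank 243) and Cnp (903, rank 262) to Mog (189, rank 1995), Mal (104, rank 3543), Ugt8 (54.0, rank 5807) and Opalin (52.1, rank 5950). Mbp lay far above Mobp and Cldn11 above Mag in every library. Mobp exceeded Cldn11 in all libraries but air control 4, and Mog exceeded Mal in all 8. Mag and Cnp changed places from library to library, and so did Ugt8 and Opalin, so the neighbors in these last pairs do not differ beyond their spread. Together the 9 genes took from 1.39% of all normalized counts, in cannabis 3, to 2.17%, in air control 1. Mbp alone took 1.11% to 1.84%.

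Among the members, 2 sets of genes had similar values across the libraries of both groups. The log2 totals of Cnp and Cldn11 had a Pearson r of 0.94 over the 8 libraries, and both genes were higher in air control 4 and cannabis 1 than in the other 6 libraries. Mog had an r of 0.90 with Mal, 0.84 with Opalin and 0.76 with Mobp, and in these genes air control 1 was highest or close to it while air control 4 was among the 3 lowest. The other pairs of this set had an r of 0.71 (Mobp with Opalin), 0.69 (Mobp with Mal) and 0.56 (Mal with Opalin). Mag had intermediate values with genes of both sets (0.73 with Mal, 0.62 with Mog, 0.62 with Cldn11 and 0.62 with Cnp). Its values with Mal and Mog exceed that of Mal with Opalin, so the edge of the second set is not sharp. Mbp (at most 0.54, with Cldn11) and Ugt8 (at most 0.43, with Cnp) were placed in neither set. The lowest r of the 36 pairs was -0.58, between Mobp and Cldn11. These are descriptions over 8 libraries that were scaled by size factors and differ in depth. Beside them stand the values of the whole data: of 8063 genes with a mean total of at least 30, 11.6% lay above the other 6 libraries in both of the shallow ones and 20.6% lay below, so the pattern of Cnp and Cldn11 was shared with many genes. In the lineage list described next, 6 of 54 genes lay above and 14 below.

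**Figure D3:**
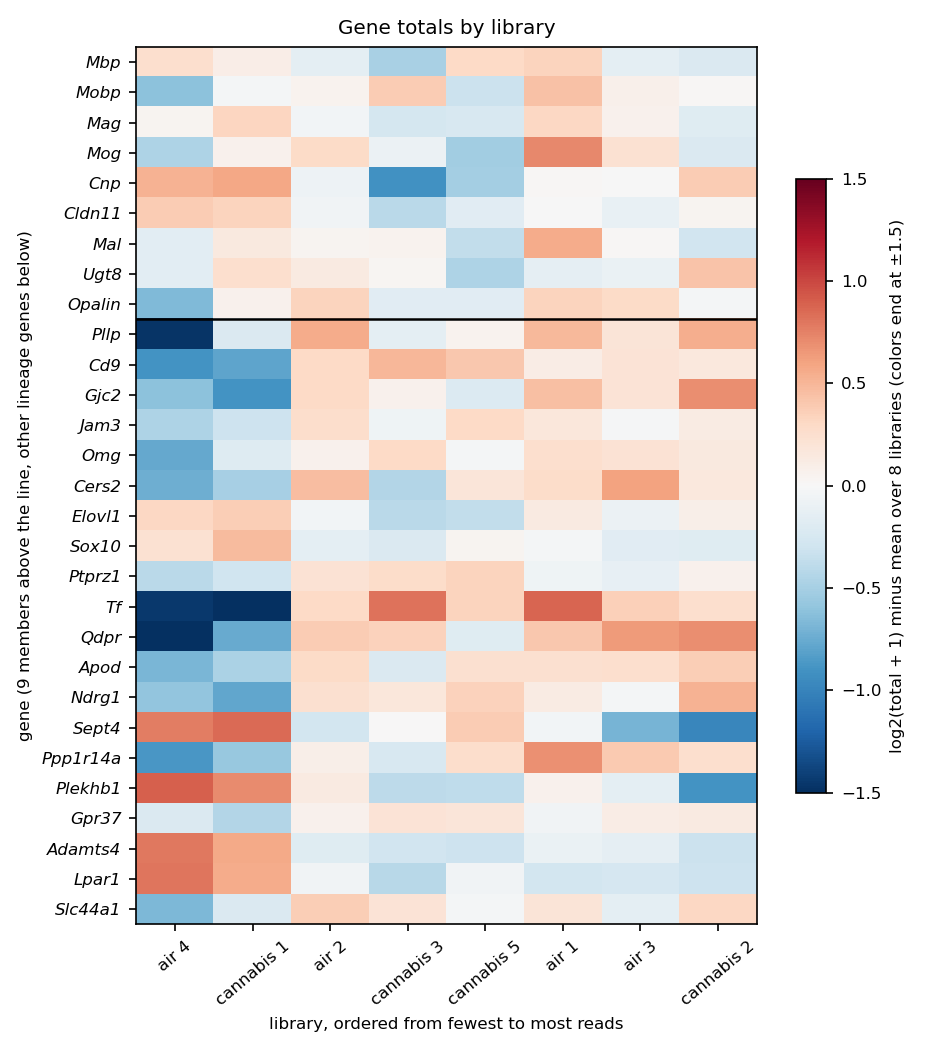
Log2(total + 1) of each gene minus its mean over the 8 libraries, as color, with libraries ordered from fewest to most reads and the 9 members above the line. Below the line are the 20 lineage genes for which air control 4 and cannabis 1, the 2 leftmost columns, both lay above or both lay below the other 6 libraries; among the members this holds for Cnp and Cldn11.

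The profile of the members as a group, the mean of their centered log2 totals, was most like that of Parn (Pearson r = 0.93 over 8 libraries), a poly(A) ribonuclease, among 3647 other genes with a mean total of at least 100. Next came Zfp804b (0.89), Rundc3a (0.86), Zfp385d (0.86) and RGD1563349 (0.86). The closest gene of the oligodendrocyte lineage list was Elovl1 (0.69, rank 74), an enzyme that lengthens fatty acids. With 8 points, the most similar of 3647 genes are selected for high values, and nothing about their relation to myelin was measured.

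In the other genes of the oligodendrocyte lineage, no total passed the test with all libraries kept. Of 59 genes listed for compact myelin and junctions, lipid synthesis, transcription factors, progenitors, newly formed cells and mature cells, 54 were measured, and Gal3st1, Elovl7, Gpr17, Lhfpl3 and Neu4 were not analysed here. Lower means after cannabis were seen in 33 of them and higher ones in 21, with a median difference of -0.11. Of all 18003 genes, 7850 were lower and 10153 higher, with a median of 0.053. None of the 54 passed limma P under 0.01 or adjusted P under 0.1, nor P under 0.01 in edgeR or DESeq2, and 3 had P under 0.05, where 2.41% of all genes did. The 3 were Tspan2, a tetraspanin of myelin-forming cells (0.61), Itpr2, a calcium release channel listed for newly formed oligodendrocytes (-0.69), and Cspg4, the NG2 proteoglycan listed for progenitors (-0.81). Which cells of the bulk tissue their reads came from was not measured. Itpr2 and C1ql1 were the 2 of 54 genes whose groups did not overlap, against 1.98% of all genes. Cspg4 is named only because its P was under 0.05. Tspan2, Itpr2 and C1ql1 are also among the 2 most abundant genes of their classes.

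Tspan2 was at 279, 339, 166 and 169 in controls and 317, 433, 325 and 323 after cannabis, with air control 2 above 3 of the cannabis-exposed rats. Its difference was 0.61 (95% confidence interval 0.06 to 1.16, limma P = 0.0323, adjusted P = 0.999, exact permutation P = 0.114), and without air control 2 it was 0.80 and passed limma P under 0.01, as 63 of all genes did. Among lipid enzymes, Elovl1 differed by -0.16 and Aspa, which releases acetate from N-acetylaspartate, by -0.46. Sox10 and Myrf, the transcription factors that direct the myelin program, differed by 0.06 (95% confidence interval -0.42 to 0.54) and -0.20 (-0.68 to 0.28). C1ql1 and Ptprz1 of the progenitor class differed by -0.36 and 0.19, Bcas1 of newly formed cells by -0.10, and Cryab and Plekhb1 of mature cells by -0.14 and -0.47. Plekhb1 was at -0.79 and passed limma P under 0.01 without cannabis 1, as 90 of all genes did. With all libraries kept, neither the mature nor the immature part of the list contained a call. The medians of the 6 classes ran from -0.27 in lipid synthesis to 0.029 in compact myelin and junctions. Of 6 genes listed for lipid synthesis, 4 were measured and 4 were lower, each with a limma P of at least 0.158. The member Ugt8, also an enzyme of lipid synthesis, was higher by 0.12.

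The 9 genes differed widely in their number of sites and in how their reads were spread over them. Opalin had 1 site, Cnp and Cldn11 had 2 each, Mog 4, Mal and Ugt8 5 each, Mag 6, Mbp 8 and Mobp 21. A site needed 16 reads, so its detection depends on the reads of a gene, which were 474 for Opalin and 311471 for Mbp. Whether each minor site is a true transcript end was not tested. One site held 99.8% of Mbp, 99.6% of Cldn11, 99.5% of Cnp and 96.7% of Mag, as a mean over the 8 libraries. In the 599 genes with a mean total of at least 500, the main site held a median of 97.2% and the median number of sites was 4. Mobp was less concentrated, with 82.5% in its main site. Mog, Ugt8 and Mal had lower shares in their main site, with 63.5%, 52.3% and 41.6%.

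No site of a member differed between groups in the main test. Of the 54 sites, 0 passed limma P under 0.01 (0.381% of all sites), 0 passed P under 0.05 (3.03%) and 0 passed adjusted P under 0.1 (0.00102%). DESeq2 called 0 at P under 0.01 (0.315%), but it gave no P for sites 5, 14 and 18 of Mobp. Used as a share of its gene, each of 23 sites with enough counts was tested on the log2 ratio of the site to the rest of the gene, and 0 passed P under 0.01 (0.273% of all sites tested), P under 0.05 (2.28%) or adjusted P under 0.1 (0%). The smallest P of a site was 0.0741, for site 7 of Mbp at a mean of 3.22 normalized counts. Site 1 of Mog, with 67.3 ± 5.75% of the gene in controls and 59.7 ± 8.9% after cannabis (SD, n = 4), had an exact permutation P of 0.229. All 15 shares tested had an exact permutation P of at least 0.923 after Benjamini-Hochberg adjustment.

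edgeR on the recovered reads called 3 member sites at P under 0.01, against 0.526% of all sites, and all 3 belonged to Mobp. Site 5 of Mobp had 93.5% of its 523 reads in cannabis 3, site 14 had 92.3% of its 78 reads in cannabis 5 and site 18 had all of its 52 reads in air control 1. The same sites had limma P of 0.192, 0.222 and 0.206, and the edgeR adjusted P was 0.99994 for each. DESeq2 gave no P for these 3 sites, so its count of 0 calls does not bear on them. Each of these calls therefore rests on 1 library.

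Mobp was the member whose main site varied most in its share from rat to rat. Sites 2, 3 and 5 together held 597, 92.2, 61.1 and 61.6 normalized counts in controls and 41.0, 73.7, 1157 and 101 in cannabis-exposed rats. They made up 32.7% of Mobp in cannabis 3, 16.2% in air control 1 and 1.54% to 4.65% in the other 6 libraries. Site 5 alone had 481 normalized counts in cannabis 3 and 0 to 7.97 in the others. Without these 3 sites Mobp was at 3083, 2719, 2802 and 1712 in controls and 2625, 2665, 2379 and 2077 after cannabis, so cannabis 3 no longer stood near the top. Site 1 held from 58.3% to 92.4% of the gene, and its mean share of 84.8 ± 8.38% in controls and 80.1 ± 15.2% after cannabis (SD, n = 4) had an exact permutation P of 0.686.

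**Figure D4:**
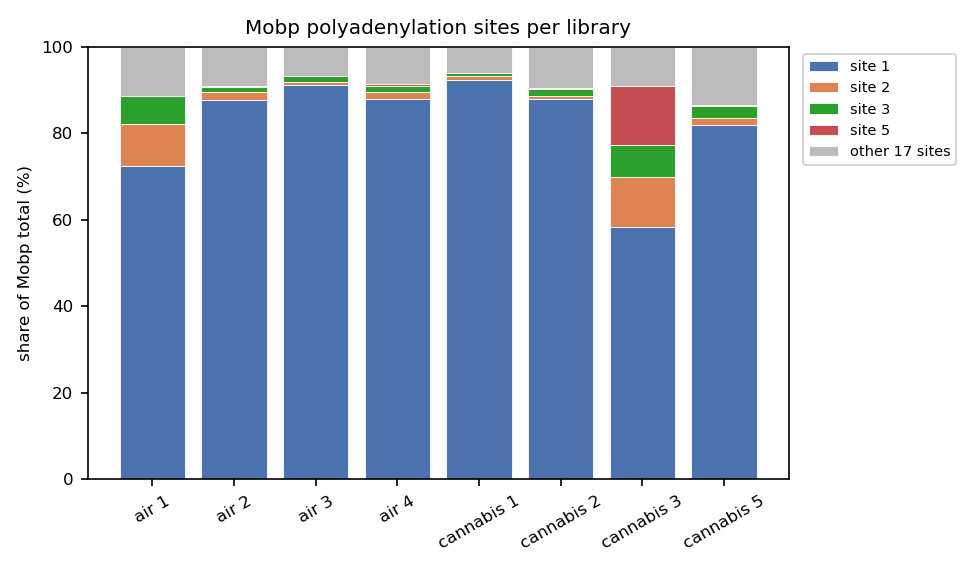
Share of the Mobp total at its polyadenylation sites in each library, in percent, as stacked bars that add to 100%. Cannabis 3, with 32.7% in sites 2, 3 and 5, and air control 1, with 16.2%, stand apart, and they are in different groups.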

How the data were processed

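Hypothalamic WTTS-Seq libraries of 4 air-treated and 4 cannabis-exposed rats were grouped by their labels. Per the study's methods, the authors trimmed leading Ts, kept reads of at least 16 nt, mapped them with TMAP 3.4.1 to Rnor_6.0, clustered read ends within 24 nt, kept sites with at least 16 reads and named sites with Cuffcompare 2.2.1. The signal they deposited for each library separately is a normalized count per site: reads scaled with DESeq2 size factors. The normalized counts were whole multiples of 1 read in 100% of values (tolerance 0.01 reads), so reads were recovered.

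Gene totals were sums over sites with 1 symbol. limma 3.58.1 (R 4.3.3) with a mean-variance trend tested log2(value + 1), which understates changes of low values, over all 18003 genes, 98356 sites or 10252 usage ratios (sites with a mean of at least 10 in genes with at least 2 such sites). edgeR 4.0.16, on recovered reads, called 54 genes at P under 0.01, and DESeq2 1.42.0 called 76. No other filter was set, but DESeq2 ran with its default filters, and sites 5, 14 and 18 of Mobp received no P from it. The DESeq2 shares are over all genes or sites, including any without a P. The fit was tested on simulated data. Depth per library was 1159811 to 3706778 reads, which limits the precision of sites with few reads, and counting intervals do not cover PCR duplicates.

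All members were named by total. Sites were named if the main site of a gene, with at least 5% of it or called, and lineage genes if among the 2 most abundant of a class or called. Some genes under these rules and lists are not reported here, although the counts over the lists include them. The members, lists and markers were chosen with earlier results of these data known. The labels do not say how replicates were housed or prepared, so P covers the spread between these libraries. Alternatives were both count models, other pseudocounts (0.5, 5), only sites with a mean of at least 10 (usage 20), equal totals, no trend, the replicate number as a block, P under 0.05, each library left out and, chosen after seeing the data, both shallow libraries left out. Same-numbered rats did not deviate together (r = -0.235, 0.089 and -0.0699). Site positions were not used here.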

Additional observations from a re-analysis of the deposited data

Results flagged for a closer look

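The following values were singled out because 1 library stood farther from the nearest of its group than Dixon's 95% critical value for 4 samples allows. Of 102 groups tested, chance alone flags about 1 in 20 if values are normally distributed. In groups with few reads the rate is higher. A library with any reads is always flagged when the others of its group have 0, as for site 14 of Mobp in air control 1.

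Among gene totals, Mag was at 1188 normalized counts in cannabis 1, Cnp at 1235 and Opalin at 31.8 in air control 4, and Tspan2 at 433 in cannabis 2. Site 1 of Mag (1156 in cannabis 1) and site 1 of Cnp (1233 in air control 4) carry most of the same reads as these totals. Site 2 of Mag stood apart in both groups, with 17.5 in air control 1 and 26.1 in cannabis 1. Site 2 of Mbp was at 118 in air control 1, with at most 17.9 in the other controls. Site 4 of Ugt8 was at 13.9 in air control 4 and at most 0.731 in the other controls.

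Mobp had most of the flagged sites. In air control 1, site 2 was at 357.5, site 3 at 238, site 14 at 2.92 and site 18 at 38.0 normalized counts. In cannabis 3, site 2 was at 411, site 5 at 481 and site 7 at 122. In cannabis 5, site 14 was at 55.3. These sites are parts of 1 gene and are not independent.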

How the results depend on the processing

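With both shallow libraries left out, 1 of 9 member totals (Mog) passed P under 0.01, as did 70 of 18003 genes. edgeR called 3 member sites, and at P under 0.05 the lineage list had 3 calls. Leaving out 1 library at a time gave 0 to 1 calls in that list, which were Tspan2 without air control 2 (0.80) and Plekhb1 without cannabis 1 (-0.79). The 35 other counts under planned and added settings, each library left out not included, stayed at their main value. The same-numbered rats share only a number. Air control 4 and cannabis 5 have no same-numbered partner. With the replicate block the differences therefore came from rats 1, 2 and 3 of each group. In that setting, calls were 0 for members and 0 for the list, and all-gene calls were 24 instead of 50.

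Several directions reversed. With the replicate block the log2 differences were -0.066 for Mobp, 0.038 for Cnp, 0.045 for Cldn11, 0.042 for site 1 of Cldn11, 0.043 for site 1 of Cnp, 0.043 for site 3 of Mal, and -0.053, 0.33 and 0.089 for sites 2, 3 and 4 of Ugt8. Mobp was at -0.043 in DESeq2, -0.044 in edgeR and -0.16 without both shallow libraries, where sites 2, 3 and 4 of Ugt8 were at -0.22, 0.062 and 0.38.

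Leaving out 1 library at a time, the totals ranged from -0.18 to 0.18 for Mobp, -0.46 to 0.035 for Cnp and -0.23 to 0.011 for Cldn11, and, without a reversal, from -0.28 to -0.015 for Mbp, -0.32 to -0.11 for Mag, -0.60 to -0.20 for Mog, -0.32 to -0.082 for Mal, 0.00021 to 0.30 for Ugt8 and -0.39 to -0.059 for Opalin. Sites ranged from -0.23 to 0.0099 for Cldn11 1, -0.46 to 0.043 for Cnp 1, -0.29 to 0.11 for Mal 3, -0.25 to 0.019 for Mobp 1, -0.33 to 0.81 for Ugt8 2, -0.50 to 0.36 for Ugt8 3 and -0.76 to 0.61 for Ugt8 4. Differences in share, in percentage points, ranged from -5.05 to 2.77 for Mal 1, -1.02 to 3.14 for Mal 3, -0.0498 to 0.034 for Mbp 1, -8.76 to 2.64 for Mobp 1, -0.359 to 6.43 for Mog 2, -9.82 to 6.48 for Ugt8 2, -6.43 to 0.897 for Ugt8 3 and -6.7 to 3.52 for Ugt8 4. The cause was not tested. Sites with few reads, as in Ugt8, limit what can be detected.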
